A study of Mus musculus with 8 samples.

Results

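The genes that encode the constitutive proteasome were examined in macrophages sorted from MC38 tumors. Members were the protein-coding genes named Psma, Psmb, Psmc or Psmd with a number, leaving out the immunoproteasome genes Psmb8, Psmb9 and Psmb10. This gave 36 of the 35275 genes in the table: 8 alpha ring genes, 8 beta ring genes, 6 genes for ATPases of the regulatory particle and 14 genes named for its non-ATPase subunits. The rule used gene names and no measured value. MC38 is a cell line from a mouse colon adenocarcinoma, and 100000 of its cells had been injected under the skin of female C57BL/6J mice aged 6 to 8 weeks. RNA was sequenced from CD11b+ F4/80+ Ly6G- Ly6C- cells taken by flow cytometry after 21 days. There were 4 mice labelled Atg5 KO (Atg5flox/flox+LysMcre) and 4 labelled Atg5 WT (Atg5flox/flox), each numbered 1 to 4, with 1 library per mouse. Both groups carried the floxed Atg5 alleles, and they differed in a Cre driven from the lysozyme M (Lyz2) locus, which acts in myeloid cells and not in the implanted tumor cells.

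The proteasome is the main protease for ubiquitinated proteins, and autophagy, which needs Atg5, is the other main route of protein breakdown. The core particle of the proteasome is a barrel of outer alpha rings, which gate the entry, and inner beta rings, which hold the proteolytic sites. The regulatory particle caps the barrel: a ring of Psmc ATPases unfolds substrates, and Psmd subunits bind ubiquitin, cut it off and hold the cap together. In mammals, the transcription factor Nfe2l1 raises the subunit genes together when proteasome activity is low, through antioxidant response elements in their promoters. Interferon-exposed and immune cells replace the proteolytic subunits Psmb6, Psmb7 and Psmb5 with Psmb9, Psmb10 and Psmb8, which forms the immunoproteasome.

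The sequences upstream of Psmb5 and Psmb6, which encode the chymotrypsin-like and the caspase-like proteolytic subunit, are shown because both hold a match to the core of this element, TGACNNNGC, in capitals below. They are the 250 bases before the RefSeq start of each gene on GRCm38.p6, read 5′ to 3′ on the gene's strand, at chr14:54617996-54618245 (minus strand) for Psmb5 and chr11:70525107-70525356 (plus strand) for Psmb6.
Psmb5: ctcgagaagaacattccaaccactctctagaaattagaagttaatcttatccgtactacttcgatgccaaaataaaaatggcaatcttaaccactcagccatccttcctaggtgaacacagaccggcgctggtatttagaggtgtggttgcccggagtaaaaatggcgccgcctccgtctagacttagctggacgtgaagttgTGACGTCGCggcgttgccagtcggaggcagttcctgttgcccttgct
Psmb6: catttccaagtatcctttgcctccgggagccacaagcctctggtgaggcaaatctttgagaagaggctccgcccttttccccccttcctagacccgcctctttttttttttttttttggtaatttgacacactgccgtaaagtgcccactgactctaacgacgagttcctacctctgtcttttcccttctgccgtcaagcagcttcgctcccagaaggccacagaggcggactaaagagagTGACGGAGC
The match began 47 bases before the start of Psmb5 and 9 bases before the start of Psmb6. RefSeq windows of 300 bases, from 250 before to 50 after the start, were found for 29 of the 36 members (31 windows). Searched on both strands, TGACNNNGC was in 5 of these 31 windows (16.1%), those of Psmb5, Psmb6, Psmc6, Psmd9 and Psmd12, against 12.4% of 32851 windows of all genes. The CCAAT box, searched as CCAAT on both strands, was in 12 windows (38.7%) against 37.4% of all, and no window of a member held both motifs. These shares were close to those of all promoters.

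The library totals were 16168331 to 25555195 fragments in the KO-labelled libraries and 14799546 to 21554368 in WT. The libraries labelled Atg5 KO held more Atg5 RNA, with 12.8 to 16.2 FPKM (fragments per gene, scaled to the gene's length and the library's total) against 3.50 to 6.73 in WT, so that the label could not be checked by the level of its target. Whole-gene FPKM also counts exons outside a floxed part, and every direction below rests on the labels as given. Both mouse 1 libraries stood apart: the first principal component of all genes (58.94% of the variance) placed them at -37.78 (KO-labelled) and -34.72 (WT), and the other 6 between -3.71 and 21.34. Results are therefore given with and without them. On the second component (18.34% of the variance), KO-labelled mouse 2 lay at -29.34, and the others between -3.42 and 15.01. Mice 2 to 4 thus still hold a library that stands apart. The 10 macrophage markers summed to 4932 to 7298 FPKM in KO-labelled and 6371 to 7593 in WT libraries. C1qa, C1qb and C1qc made up most of this sum, and C1qa averaged 1590 FPKM in KO-labelled and 2102 in WT libraries. Itgam, which encodes the sort marker CD11b, went the other way, with 323 FPKM in KO-labelled and 254 in WT, without overlap (1.74% of all genes). On the log2 scale, 3 of the 10 were higher in KO-labelled libraries, against 58.5% of all genes. The 9 T and NK cell markers summed to 2.87 to 4.89 FPKM in KO-labelled and 4.4 to 8.78 in WT libraries. Summed neutrophil markers were 74.2 to 156 FPKM in KO-labelled and 43.2 to 100 in WT libraries, and monocyte markers 201 to 322 in KO-labelled and 159 to 247 in WT. Dendritic cell markers summed to 20.6 to 40.9 FPKM in KO-labelled and 28.3 to 52.2 in WT, and B cell markers to 2.12 to 3.47 in KO-labelled and 1.92 to 3.71 in WT libraries. Epithelial markers summed to 36.6 to 70.6 in KO-labelled and 44.1 to 75.5 in WT. Most of the epithelial sum was Cdh1, at 34.7 to 71.9 FPKM over all libraries. Every other marker on that list stayed at or below 1.82 FPKM, the highest value of Epcam. No marker gene that was found was at 0 in all libraries, and the part of these cells in the results below was not tested. In bulk RNA, fewer cells of a type and less RNA per cell cannot be told apart.

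Proteasome subunit genes had a median level of 59.7 FPKM over all libraries, and none of them passed the test between the groups. Of the 36 members, 34 had a mean of at least 1 FPKM over the 8 libraries and were tested with limma on log2(FPKM + 1) among 11019 genes. No member was called at an adjusted p of 0.05, nor was any other gene (0.0% of all genes), and the smallest adjusted p of a member was 0.999. At an unadjusted p under 0.05 there were 0 members, against 223 of all genes (2.02%). The log2 differences, KO-labelled minus WT, ran from -0.16 for Psmd9 to 0.25 for Psmd11, and the ratio of group means from 0.895 to 1.2. They were positive for 27 of the 34 members, against 58.5% of all genes, with a median of 0.079 against 0.029 for all genes. The 95% intervals lay between -0.45 and 0.71, and for 33 of the 34 members, all but Psmc6, the interval left out a 1.5-fold change in either direction. Between 275 and 8162 fragments lay behind each value of a tested member, and the coefficient of variation over the 8 libraries had a median of 12.9%.

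Summed over all 36 members, the proteasome genes took 2339, 2264, 2272 and 2183 FPKM in KO-labelled mice 1 to 4, against 2495, 2075, 2133 and 2062 FPKM in WT mice 1 to 4. The highest sum belonged to WT mouse 1. Among mice 2 to 4, all 3 KO-labelled sums were above all 3 WT sums. These sums were 0.499% to 0.556% of all FPKM in the KO-labelled libraries and 0.473% to 0.563% in WT.

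**Figure D1:**
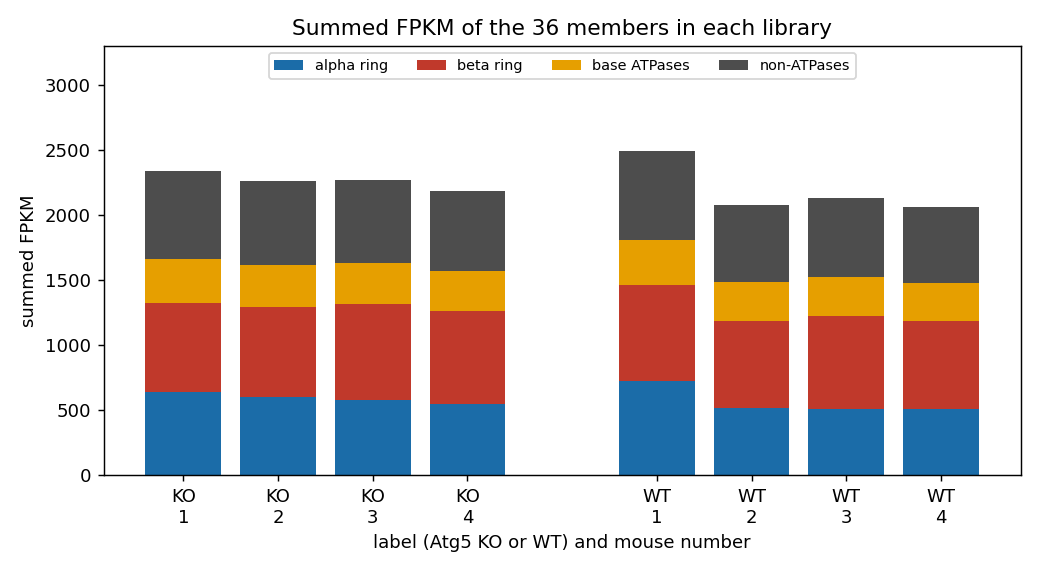
Summed FPKM of the 36 members (vertical axis) in each library, by label and mouse number, with the shares of the alpha ring, beta ring, base ATPase and non-ATPase genes stacked. The KO-labelled sums lie between 2183 and 2339, and the WT sums lie between 2062 and 2133 except for mouse 1 at 2495.

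The alpha ring genes, whose products form the gated entry of the core particle, had a median level of 91.3 FPKM over the 7 tested members. Levels per length ran from 31.1 FPKM for Psma3 to 108 for Psma6, a 3.47-fold range. All 7 differences were positive, from 0.029 to 0.15 on the log2 scale, yet within mouse 1 all 7 were negative, with a median of -0.11. Over mice 2 to 4 all 7 were positive, with a median of 0.15. Psma1, chosen after its values were seen, had 124, 112, 96.4 and 93.0 FPKM in KO-labelled mice 1 to 4, against 152, 91.6, 95.8 and 86.2 FPKM in WT mice 1 to 4. Psma1 averaged 106 ± 14.3 FPKM in KO-labelled and 106 ± 30.6 in WT libraries (SD, n = 4 each), and mouse 1 was the highest library of each group. Psma8, a testis alpha subunit, was below the filter at 0.913 ± 0.181 FPKM in KO-labelled and 0.782 ± 0.505 in WT libraries (SD, n = 4 each).

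The beta ring genes had the highest median level of the 4 gene groups, 99.4 FPKM over 7 tested members, and a range of 2.3-fold. The highest of all members was Psmb4, a non-proteolytic beta subunit, with 140, 130, 138 and 136 FPKM in KO-labelled mice 1 to 4, against 155, 128, 135 and 131 FPKM in WT mice 1 to 4. Its groups overlapped, and its difference was -0.0097 ± 0.096 (SE, adjusted p = 0.999). Psmb11, the thymic proteolytic subunit and the gene next to Psmb5 on chromosome 14 (54625310 to 54629556, against 54614120 to 54617995 for Psmb5, mm10), was at 0.0135 ± 0.0189 FPKM in KO-labelled and 0.0298 ± 0.0412 in WT libraries (SD, n = 4 each), from at most 8 fragments.

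The 3 genes for the proteolytic subunits showed 3 different patterns, none past the test. Psmb5, the chymotrypsin-like subunit that is the main target of proteasome inhibitors, had 86.2, 127, 121 and 119 FPKM in KO-labelled mice 1 to 4, against 85.5, 108, 127 and 119 FPKM in WT mice 1 to 4. The groups overlapped almost fully, and the mouse 1 library was the lowest of each group. Psmb6, the caspase-like subunit, had 114, 108, 131 and 128 FPKM in KO-labelled mice 1 to 4, against 120, 130, 136 and 133 FPKM in WT mice 1 to 4. It was lower in the KO-labelled library of all 4 numbered pairs, although the groups overlapped, with a log2 difference of -0.11 ± 0.10 (SE, limma adjusted p = 0.999). Psmb7, the trypsin-like subunit, had 85.9, 89.4, 89.2 and 79.8 FPKM in KO-labelled mice 1 to 4, against 95.2, 74.5, 77.5 and 74.4 FPKM in WT mice 1 to 4. Without mouse 1 its groups did not overlap, KO-labelled being higher, and with mouse 1 they did (difference 0.10 ± 0.11 SE). The 3 pseudogenes looked at took few fragments: Psmb5-ps had at most 2 in any library, Psmb6-ps at most 5 and Psmb7-ps2 0. Their sequences were not compared with those of the genes. The sources used here do not say how any reads shared with pseudogenes were assigned.

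The 6 base ATPase genes had a median of 54.2 FPKM, from 24.1 for Psmc2 to 75.03 for Psmc3, although their products stand in 1 ring. Psmc5 was the single member, of 34, whose groups did not overlap over all 8 libraries, against 1.74% of all genes. It had 59.8, 65.0, 63.7 and 60.5 FPKM in KO-labelled mice 1 to 4, against 55.7, 58.8, 57.6 and 58.5 FPKM in WT mice 1 to 4. Every KO-labelled value was above every WT value, but by little: the ratio of means was 1.08 and the log2 difference 0.11 ± 0.085 (SE). The two-sided exact permutation test gave its smallest possible p for groups of 4, 0.0286, whereas limma gave p = 0.234 and an adjusted p of 0.999. Psmc6, chosen after its values were seen because it spread most, had 55.5, 45.3, 34.5 and 34.4 FPKM in KO-labelled mice 1 to 4, against 63.2, 31.2, 34.9 and 28.6 FPKM in WT mice 1 to 4. Its mouse 1 libraries were the highest of their groups, and its coefficient of variation of 30.5% was the largest of the 34 tested members.

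The 14 non-ATPase genes spanned 18.1-fold, from 6.71 FPKM for Psmd5 to 121 for Psmd8. The lower end was set by Psmd5, Psmd9 and Psmd10, which encode assembly chaperones that bind the ATPases and are absent from the finished particle, at 6.71 to 15.3 FPKM. Without these 3, levels of the tested members varied 5.68-fold in place of 20.4-fold. Psmd5 had 8.09, 6.79, 6.62 and 6.95 FPKM in KO-labelled mice 1 to 4, against 8.36, 5.28, 5.25 and 6.31 FPKM in WT mice 1 to 4. Psmd9 was lower in the KO-labelled library of all 4 pairs, at 10.3 ± 1.83 FPKM against 11.5 ± 0.869 in WT (SD, n = 4 each, difference -0.16 ± 0.13 SE). Psmd14, the deubiquitinase of the lid, averaged 46.0 ± 7.12 FPKM in KO-labelled and 44.6 ± 11.6 in WT libraries, and Psmd4, a ubiquitin receptor, 44.2 ± 2.35 in KO-labelled and 43.9 ± 3.57 in WT libraries (SD, n = 4 each).

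The smallest p values of the members belonged to Psmd11, Psmd1, Psmd2 and Psmc5, all genes of the regulatory particle. Psmd11, a lid subunit that holds the cap to the core particle, had 29.0, 28.8, 25.5 and 22.2 FPKM in KO-labelled mice 1 to 4, against 24.5, 20.4, 22.2 and 20.6 FPKM in WT mice 1 to 4. KO-labelled mice 1 to 3 were above every WT library, and KO-labelled mouse 4 lay within the WT range. The difference was 0.25 ± 0.12 on the log2 scale (SE, 95% interval -0.0091 to 0.51, p = 0.0569, adjusted p = 0.999, exact permutation p = 0.0571). Psmd1, the large base scaffold, had 41.6, 40.8, 31.2 and 29.6 FPKM in KO-labelled mice 1 to 4, against 36.8, 29.8, 30.2 and 25.9 FPKM in WT mice 1 to 4. Its groups overlapped, with KO-labelled mice 1 and 2 the highest of the 8 (difference 0.21 ± 0.15 SE, limma adjusted p = 0.999). Psmd2, its partner scaffold, had 106, 108, 101 and 96.4 FPKM in KO-labelled mice 1 to 4, against 98.6, 94.3, 92.1 and 95.5 FPKM in WT mice 1 to 4. Only KO-labelled mouse 4 lay within the WT range (exact permutation p = 0.0571; limma p = 0.231).

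**Figure D2:**
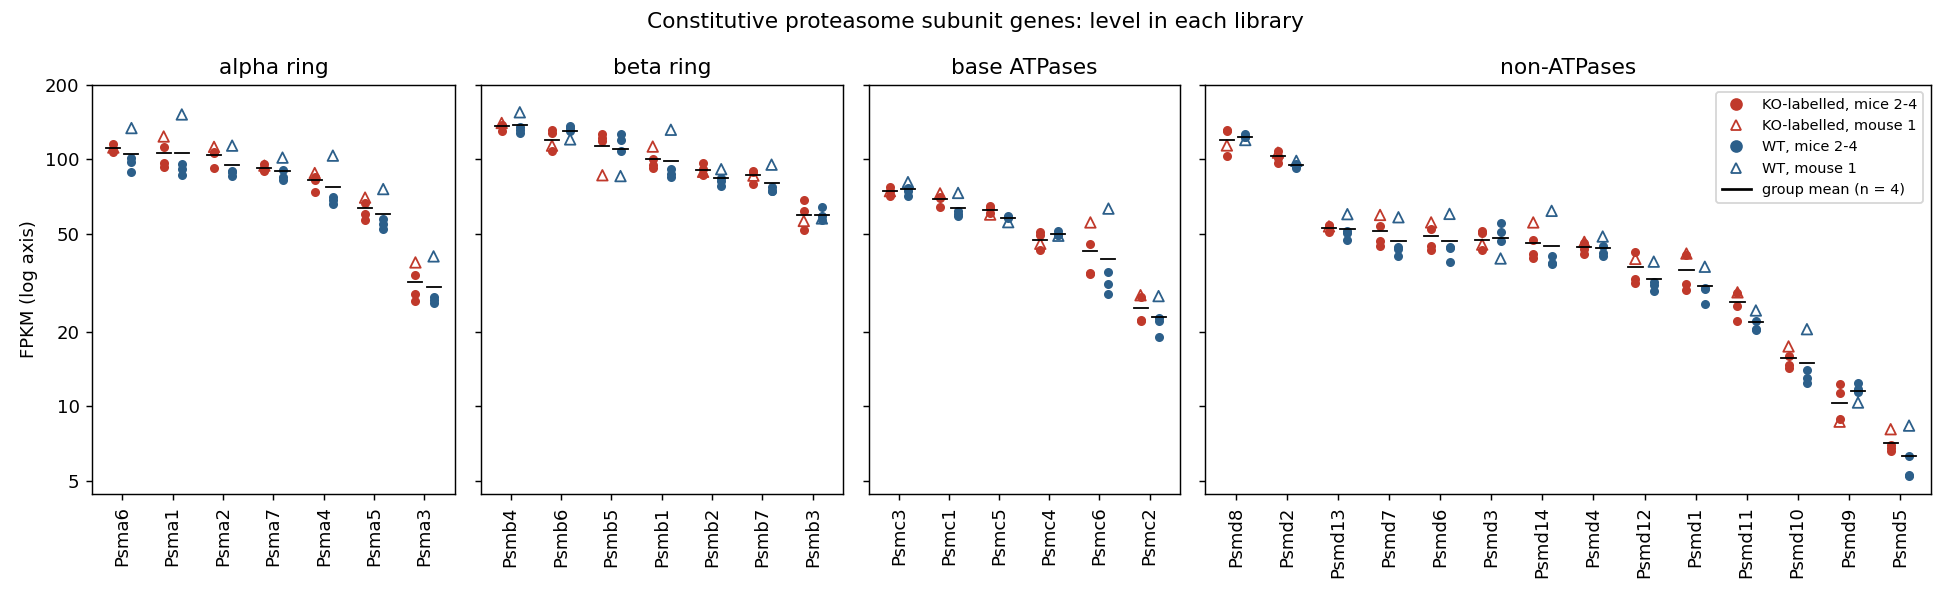
FPKM (log axis) of each tested member in each library, grouped by subcomplex and ordered by mean level. Red marks KO-labelled and blue marks WT libraries, triangles mark mouse 1, and bars are group means (n = 4). Triangles lie at the top of many alpha ring genes and at the bottom of Psmb5, and the groups overlap for all members but Psmc5.

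Over all 8 libraries, deviations of same-numbered libraries from their group means correlated at 0.208 to 0.841. The mouse number was therefore added to the model as a block in a second fit. Without mouse 1 the correlations were 0.297, -0.134 and 0.205, and the labels do not say that same-numbered mice were paired. With the block, 2 members had an unadjusted limma p under 0.05, both higher in KO-labelled libraries, against 5.19% of all genes that were higher. They were Psmd11 (limma adjusted p = 0.564) and Psmd1 (limma adjusted p = 0.565). No member was called, against 0.00908% of all genes. That share was 1 gene, Atg5, which was higher in KO-labelled libraries (limma adjusted p = 0.00481). In the 4 pairs, 6 members were higher in the KO-labelled library every time, namely Psmc5, Psmd1, Psmd2, Psmd7, Psmd11 and Psmd12, against 13.2% of all genes, and Psmb6 and Psmd9 were lower every time, against 6.52%. As a share of 34 members, neither count was far from that of all genes.

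The mouse 1 pair ran the other way from the rest. Within mouse 1, 9 of 34 members were higher in the KO-labelled library, against 56.5% of all genes, with a median difference of -0.081 against 0.029. Over mice 2 to 4, 29 of 34 were higher in KO-labelled libraries, against 57.0% of all genes, with a median difference of 0.135 against 0.0301. There, 13 of the 34 had groups that did not overlap, all higher in KO-labelled, against 14.7% of all genes in either direction and 10.3% higher. At an unadjusted limma p under 0.05, 3 members were higher over mice 2 to 4, against 3.43% of all genes. These were Psma4, Psma6 and Psmd5, and none was called (adjusted p = 0.776 for each).

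**Figure D3:**
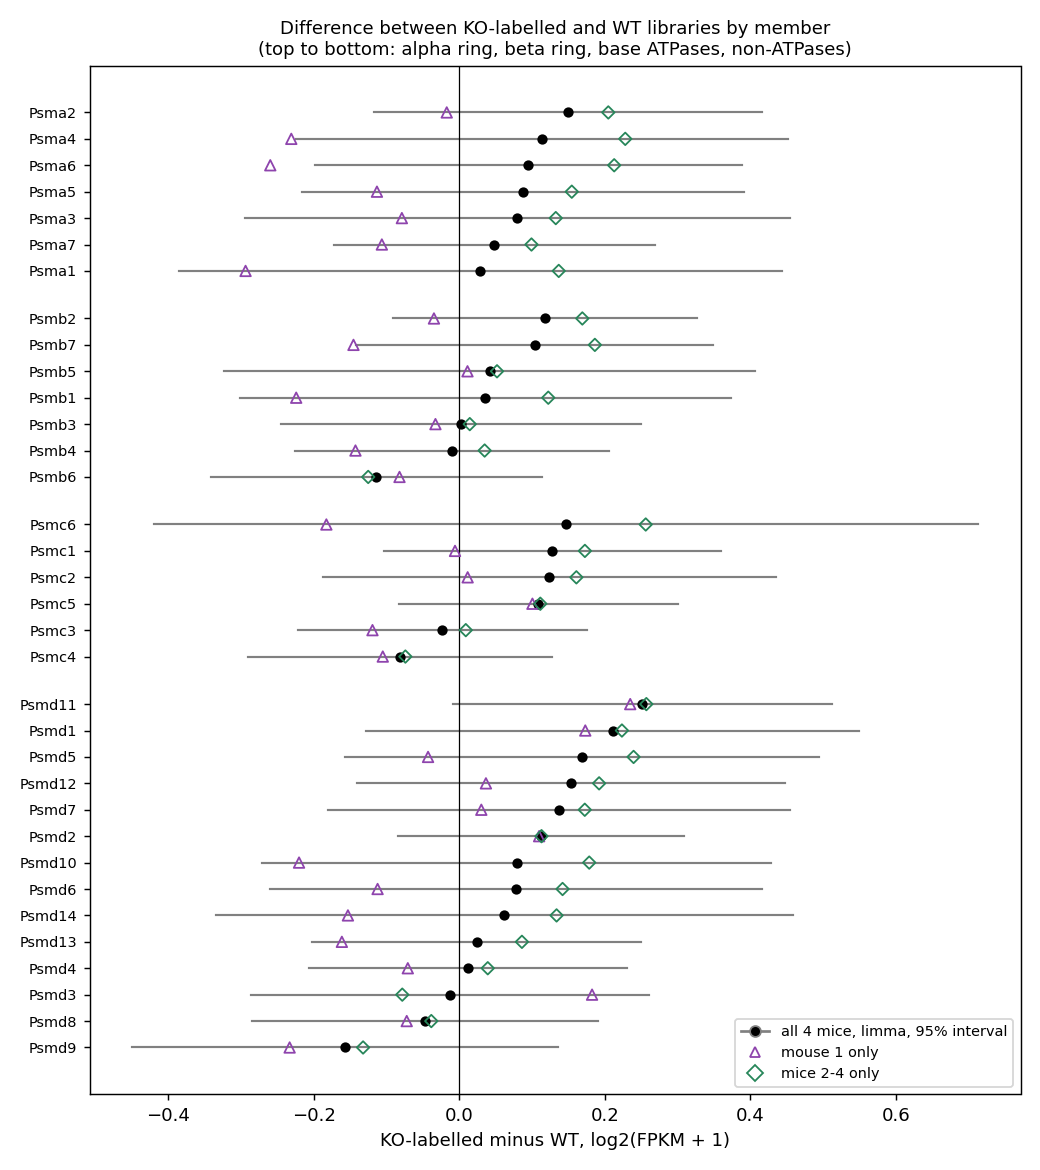
Difference between KO-labelled and WT libraries on the log2(FPKM + 1) scale (horizontal axis) for each tested member, as the limma estimate over all mice with its 95% interval (black), for mouse 1 alone (triangles) and for mice 2 to 4 (diamonds). All 34 intervals include 0, and the alpha ring triangles lie left of 0 while their diamonds lie right of it.

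The mouse 1 libraries shifted most members upward in both groups. Both mouse 1 libraries were above the other 6 for 16 of 34 members, against 29.8% of all genes: 5 of 7 alpha ring, 2 of 7 beta ring, 3 of 6 ATPase and 6 of 14 non-ATPase genes. Both were below the other 6 for Psmb5 alone, against 14.7% of all genes. The difference of the mouse 1 libraries from the rest had a median of 0.19 over the members and 0.12 over all genes, from -0.48 for Psmb5 to 0.76 for Psmc6. Summed fibroblast markers were 221 FPKM in KO-labelled mouse 1 and 112 in WT mouse 1, with 6 of 10 markers highest in both mouse 1 libraries. In mice 2 to 4 they were 32.0, 33.9 and 37.3 FPKM in KO-labelled, against 20.8, 19.4 and 27.4 FPKM in WT libraries. KO-labelled sums were thus above WT sums in all 4 pairs, without overlap in mice 2 to 4, where most proteasome genes were also higher in KO-labelled libraries. Summed proliferation markers were 421 FPKM in KO-labelled mouse 1 and 448 in WT mouse 1, against 265 to 347 in the other 6, with 7 of 10 highest in both. The part of these markers in the mouse 1 difference of the proteasome genes, and in their KO-labelled minus WT difference, was not tested.

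Base composition ran with the size of these differences. Psmb5 and Psmc6, which had the lowest and the highest mouse 1 difference, differ in GC content, and the first 150 coding bases of each are shown for this reason, from GENCODE release M21 transcripts on GRCm38, with the start codon in capitals.
Psmb5 coding start: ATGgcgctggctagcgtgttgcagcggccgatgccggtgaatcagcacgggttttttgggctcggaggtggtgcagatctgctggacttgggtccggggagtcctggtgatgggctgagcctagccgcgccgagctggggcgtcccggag
Psmc6 coding start: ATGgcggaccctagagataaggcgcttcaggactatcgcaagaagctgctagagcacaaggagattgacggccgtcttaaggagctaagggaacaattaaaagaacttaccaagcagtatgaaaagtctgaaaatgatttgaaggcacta
These stretches held 66.7% GC in Psmb5 and 44.7% in Psmc6, and the whole coding sequences 57.8% of 792 bases and 41.8% of 1167 bases. Over the 34 members, the mouse 1 difference and the GC content of the gene's transcripts had a Pearson r of -0.77 (Spearman rho -0.75), against -0.55 (-0.66) over 10980 genes. The KO-labelled minus WT difference over mice 2 to 4 had r = -0.66 with GC over the members and -0.55 over all genes. Over all mice r was -0.48 over the members and -0.44 over all genes, and within mouse 1 it had the opposite sign, 0.31 over the members and 0.048 over all genes. These points are genes of the same 8 libraries and are not independent. The 17 members of lowest GC (40.6% to 48.5%) had a median mouse 1 difference of 0.36, and the 17 of highest GC (50.4% to 57.0%) of 0.064. Over all mice, the KO-labelled minus WT difference was positive for 17 of the 17 low-GC members (median 0.10) and for 10 of the 17 high-GC members (median 0.0115). Psmd7, chosen after its values were seen, which pairs with Psmd14 in the lid, did not follow the trend, with 53.8% GC and a mouse 1 difference of 0.37.

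**Figure D4:**
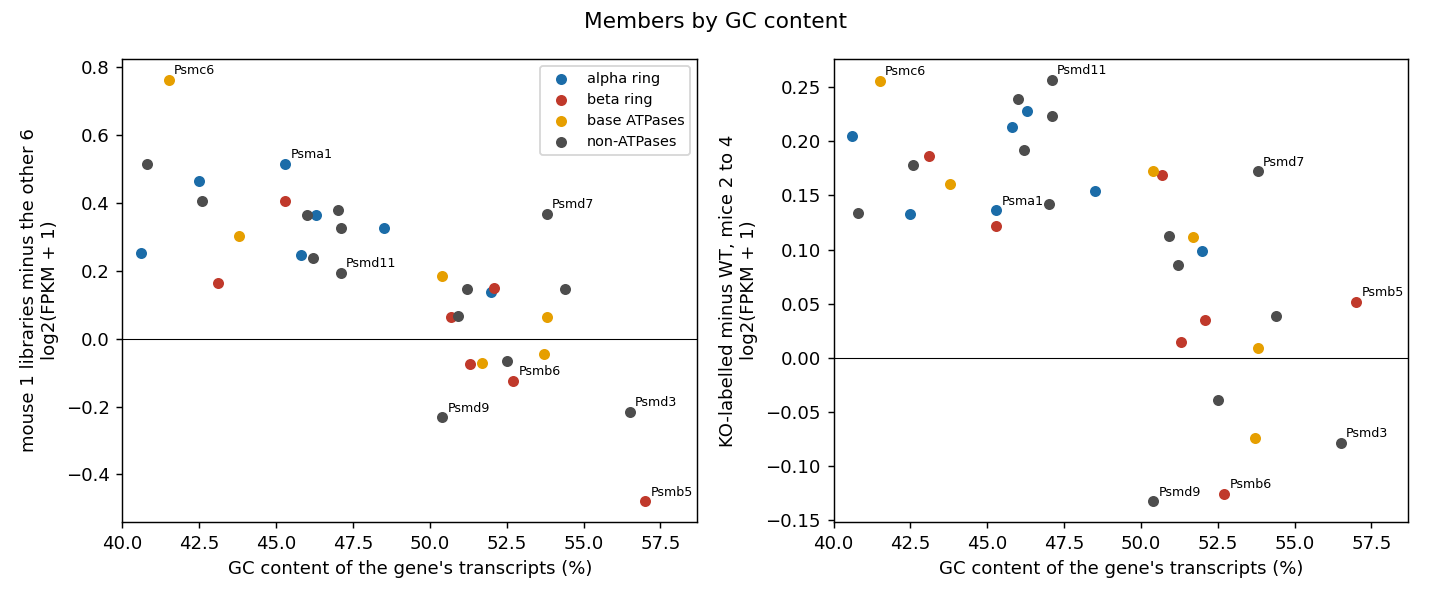
GC content of each tested member's transcripts (horizontal axis, %) against the difference of the mouse 1 libraries from the other 6 (left) and the KO-labelled minus WT difference over mice 2 to 4 (right), both on the log2(FPKM + 1) scale, with colors for subcomplexes. Low-GC members such as Psmc6 lie high in both panels and Psmb5 lies lowest on the left.

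After a smooth dependence on GC was removed within each library, a step added after the values were seen, the median KO-labelled minus WT difference of the members was 0.023 against 0.0045 for all genes, with 22 of 34 positive against 52.0%. Over mice 2 to 4 it was 0.066 against 0.00077, with 28 of 34 positive against 50.2%. No member then had an unadjusted limma p under 0.05 over mice 2 to 4, against 4.46% of all genes. The difference of Psma4 there was 0.13 after GC removal and 0.23 before it, that of Psma6 0.11 and 0.21, and that of Psmd5 0.14 and 0.24. With GC removal and the block, Psmd11 was higher and Psmd9 lower at an unadjusted limma p under 0.05, against 4.44% of all genes higher and 3.93% lower, and no member was called.

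The immunoproteasome subunits were also set against the constitutive ones they replace. Psmb10, the replacement of Psmb7, had 133 ± 23.5 FPKM in KO-labelled and 153 ± 13.9 in WT libraries, and Psmb8, that of Psmb5, 67.3 ± 11.7 in KO-labelled and 76.6 ± 6.29 in WT libraries (SD, n = 4 each). Psmb9, that of Psmb6, had 41.3 ± 7.63 FPKM in KO-labelled and 45.8 ± 5.09 in WT libraries (SD, n = 4 each). None of the 3 was called or had an unadjusted p under 0.05, and with the block Psmb8 and Psmb10 were lower at that level in limma, as were 3.62% of all genes. With GC removal and the block neither was, and the difference of Psmb10 was -0.12 in place of -0.22 (limma adjusted p = 0.743), that of Psmb8 -0.16 in place of -0.20 (limma adjusted p = 0.634). The Psmb10 to Psmb7 ratio was 1.28, 1.36, 1.84 and 1.69 in KO-labelled mice 1 to 4, against 1.41, 2.04, 2.09 and 2.21 in WT mice 1 to 4. It was lower in the KO-labelled library of all 4 pairs, and the WT mouse 1 value fell within the KO-labelled range (exact permutation p = 0.143, adjusted over the 3 ratios 0.214). Without mouse 1 it averaged 1.63 in KO-labelled and 2.11 in WT libraries, with no overlap and an exact permutation p of 0.1, the smallest that 3 against 3 allows. The genes of this ratio differ in GC content, 58.3% for Psmb10 and 43.1% for Psmb7. Over mice 2 to 4, GC removal brought the log2 difference of Psmb10 to -0.073, against -0.20 without it, and that of Psmb7 to 0.046, against 0.19 without it. The Psmb8 to Psmb5 ratio averaged 0.597 ± 0.067 in KO-labelled and 0.704 ± 0.066 in WT libraries (SD, n = 4 each, exact permutation p = 0.0857, adjusted 0.214). The Psmb9 to Psmb6 ratio averaged 0.342 ± 0.044 in KO-labelled and 0.352 ± 0.029 in WT libraries (SD, n = 4 each, exact permutation p = 0.686). The ratios were chosen after the values of these genes were seen.

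**Figure D5:**
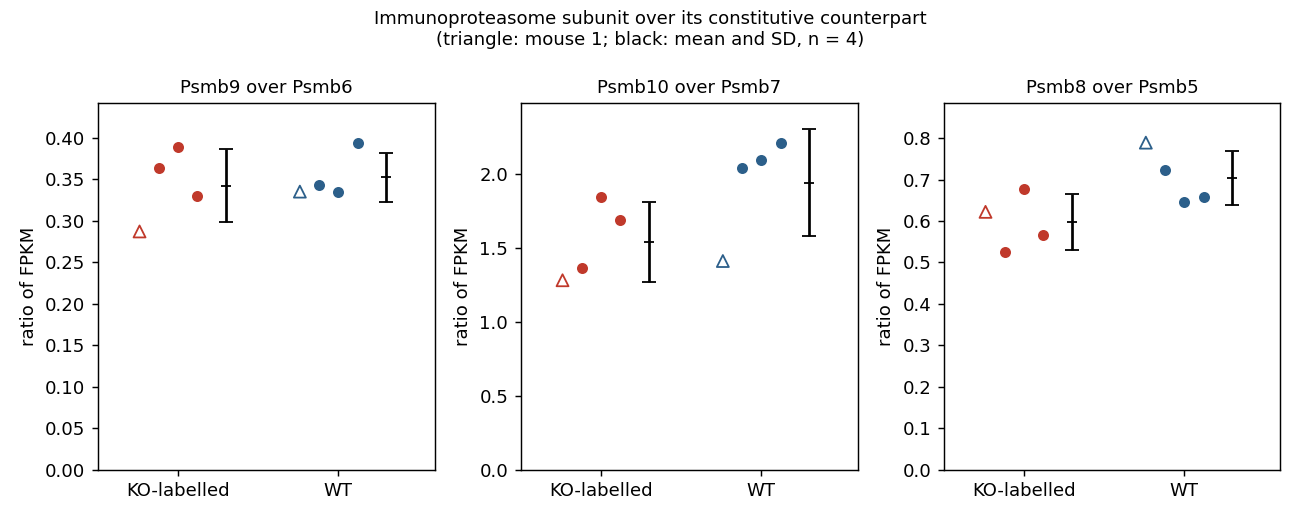
Ratio of FPKM of each immunoproteasome subunit gene to its constitutive counterpart (vertical axes from 0) in each library, KO-labelled left and WT right, with triangles for mouse 1 and mean and SD in black (n = 4). The Psmb10 to Psmb7 ratio shows 3 WT points above all KO-labelled points, with WT mouse 1 among the KO-labelled ones.

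Other genes of the pathway gave no call either, and none of the 52 tested genes on 7 lists had an unadjusted p under 0.05 in the test without the block. Among 5 activators and inhibitors, Psme3, a nuclear activator, had 40.1 ± 4.49 FPKM in KO-labelled and 35.0 ± 2.00 in WT libraries, and Psme1, an interferon-induced activator subunit, 95.6 ± 7.91 in KO-labelled and 104 ± 8.25 in WT libraries (SD, n = 4 each). Among 6 assembly factors, Pomp, the maturation factor of the beta ring, had 144 ± 12.3 FPKM in KO-labelled and 150 ± 15 in WT libraries, and Akirin2, a nuclear import factor of proteasomes, 36.7 ± 5.66 in KO-labelled and 41.4 ± 7.32 in WT libraries. Among 8 other associated proteins, AI314180, the gene now called Ecpas whose product binds proteasomes, had 16.7 ± 3.03 FPKM in KO-labelled and 13.9 ± 2.49 in WT libraries. Ubr4, a ubiquitin ligase, had 22.5 ± 2.14 FPKM in KO-labelled and 19.5 ± 3.77 in WT libraries.

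Among 11 genes for ubiquitin shuttles and the unfoldase Vcp with its cofactors, Nploc4, a Vcp cofactor, had 23.5 ± 1.04 FPKM in KO-labelled and 21.2 ± 1.48 in WT libraries (SD, n = 4 each). Zfand2a, a stress-induced protein that binds proteasomes, had 37.1 ± 10.2 FPKM in KO-labelled and 43.5 ± 6.23 in WT libraries (SD, n = 4 each). Of 9 genes for transcription control, Nfe2l1 had 46.7 ± 1.99 FPKM in KO-labelled and 43.4 ± 4.86 in WT libraries (SD, n = 4 each, limma adjusted p = 0.999). Nfyb, a subunit of the factor that binds CCAAT, had 5.24 ± 0.789 FPKM in KO-labelled and 4.29 ± 0.314 in WT libraries. From a list of ubiquitin and E1 enzyme genes, the polyubiquitin gene Ubb had 521 ± 30.9 FPKM in KO-labelled and 583 ± 27.5 in WT libraries (SD, n = 4 each, limma adjusted p = 0.999). With the block, AI314180 and Nfyb were higher, and Adrm1 and Zfand2a lower, at an unadjusted limma p under 0.05, against 5.19% of all genes higher and 3.62% lower, and none of these was called. With GC removal as well, Adrm1 and Zfand2a stayed at that level, and AI314180 and Nfyb did not. In that fit Akirin2 was also lower and Ubr4 higher at an unadjusted limma p under 0.05. Ube2d2a, from the ubiquitin list and chosen after its values were seen, was lower there too. Of all genes, 4.44% were higher and 3.93% lower at that level, and none of these list genes was called. Adrm1, a ubiquitin receptor of the cap, was chosen after its values were seen. It had 22.4, 24.05, 32.1 and 33.7 FPKM in KO-labelled mice 1 to 4, against 22.5, 33.6, 38.9 and 38.9 FPKM in WT mice 1 to 4. Its groups overlapped.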

How the data were processed

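The authors deposited 1 table of FPKM values for 35275 genes with gene lengths. CASAVA, STAR and mm10 are named in the submitters' processing notes, without versions. For the counter, its strand setting and the annotation release: not given in the sources used here. Per the labels' protocols, libraries were made from total RNA with the NEBNext Ultra RNA kit.

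Deposited FPKM multiplied by gene length moved in steps of 1 size per library. The library totals printed here were inferred from that step, and with them 100.0% of values came out as whole fragments (within 0.01). Every library differed from every other beyond sampling noise. Columns were matched to mice by name. Genes averaging 1 FPKM or more (11019) were tested two-sided on log2(FPKM + 1), which understates changes of low genes, with limma 3.58.1 (R 4.3.3, mean-variance trend, Benjamini-Hochberg adjustment at 0.05). The labels name separate mice. Deviations of same-numbered libraries from their group means correlated, at 0.841 (mouse 1), 0.208, 0.458 and 0.471 (mouse 4). All exceeded 0.1, and the mouse number was used as a block in a second fit. Without mouse 1 the correlations were 0.297, -0.134 and 0.205. Exact permutation tests used SciPy 1.17.1. GC content came from GENCODE M21 transcripts, for 97.8% of genes. The GC step removed a lowess curve (span 0.3) of each library's deviation from the gene's mean.

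Named were the 3 proteolytic subunits, the 4 members of smallest p, members whose groups did not overlap, the highest and lowest members, and up to 2 genes per other list. Any other is said to be chosen after its values were seen or stands as an example of its role. Members and lists were chosen with earlier results of these data known. Alternatives were pseudocount, filter, scaling, voom on fragments, array weights, the block, and each library or both mouse 1 libraries left out. Voom with the block and the GC step were added after the data were seen. For 1 gene of the other lists, values are not reported here.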

Additional observations from a re-analysis of the deposited data

Results flagged for a closer look

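In 8 of 72 groups of 4 libraries, 1 value lay farther from the others than the 95% limit of Dixon's test allows. Chance gives about 1 group in 20. The groups are genes of the same libraries and are not independent, so the count cannot be tested against that rate. In 7 of the 8 flagged groups the outlying value was the highest WT value, that of mouse 1. Psma1 had 151.9 FPKM there against 86.2 to 95.8 in the other WT libraries, Psma2 113.6 against 85.5 to 89.6, Psma3 40.48 against 26.3 to 27.6 and Psma4 103.5 against 65.9 to 70.6. Psmb1 had 131.7 FPKM against 84.9 to 91.5, Psmb7 95.15 against 74.4 to 77.5 and Psmd14, the lid deubiquitinase, 61.87 against 37.7 to 40.6. The eighth was Psmd13, a lid subunit, lowest in KO-labelled mouse 4 at 50.75 FPKM against 53.5 to 54.0 in the other KO-labelled libraries.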

How the results depend on the processing

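No member was called in any of the 22 alternatives run. Of all genes, 0 were called in the main test and 1 with median-of-ratios scaling, quantile normalization, array weights, the replicate block, without both mouse 1 libraries, and with GC removal alone, with the block or without mouse 1. With the replicate block, without both mouse 1 libraries and in each fit with GC removal, the gene called was Atg5. With voom and the block 8 were called. Leaving out 1 library gave 0 to 1. The median log2 difference of the members lay between 0.022 (without WT replicate 4) and 0.19 (without WT replicate 1) when 1 library was left out, was 0.033 without KO-labelled replicate 1, and was 0.079 with the block. It was 0.12 with TPM scaling (30 of 34 positive), where the median of all genes was 0.067, and 0.047 with median-of-ratios scaling (23 positive), where it was 0.00032. Members at an unadjusted limma p under 0.05 were 0 in the main test. Higher in KO-labelled libraries at that level were 8 with array weights (6.96% of all genes) and 5 without WT replicate 1 (4.79%). There were 3 without both mouse 1 libraries (3.43%), 2 with the block (5.19%) and 2 with voom and the block (6.68%). TPM scaling (1.71%), quantile normalization (0.971%), no low-value filter (1.09%), leaving out KO-labelled replicate 4 (1.68%) and GC removal (1.39%) gave 1 each. GC removal with the block gave 1 higher (4.44%) and 1 lower (3.93%), and the remaining alternatives gave 0. The cause was not tested. With 4 libraries a group and the shared shift of mouse 1, small differences were not detectable here, and a missed threshold does not show equal levels.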
